A study of Mus musculus with 4 samples.

Results

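Il17b, Ppa1, Fxyd2, C1qtnf3, Car12, Col10a1 and Panx3 are 7 of the 31053 features measured, and were picked because earlier work on these data had found them lower in Sox9 mutant mice. Their lower level is therefore the rule that chose them, and every mutant against control value of these genes below is a description with no test. The question asked of them was whether fewer cells held each transcript or whether each cell that held it had less. Single cells came from tibial and femur epiphyses, the ends of the long bones, which hold growth plate, articular cartilage, bone and marrow. The controls were labelled wild type. The mutants had the genotype Sox9fl:fl AcanCreERT2/+, that is, floxed Sox9 with CreERT2, a recombinase that acts after tamoxifen, expressed from Acan, a gene of cartilage cells. Each genotype was sampled at postnatal days 13 and 19 with 1 library, so no group has a replicate. The strain, the tamoxifen schedule, the number of mice per library, and whether the controls carried the Cre or received tamoxifen were not stated in the material used here.

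Long bones lengthen through the growth plate, where chondrocytes divide in columns, enlarge and are replaced by bone. Prehypertrophic chondrocytes are those that have stopped dividing and begin to enlarge. They make Indian hedgehog (Ihh) and the receptor for parathyroid hormone related peptide (Pth1r), which together set the pace of maturation. Fully hypertrophic cells then make type X collagen. SOX9 is a transcription factor needed for chondrocyte identity.

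The 7 genes have different jobs. Il17b codes for a secreted cytokine of the interleukin 17 family, and C1qtnf3 for a secreted protein with a C1q-like domain. Col10a1 codes for the chain of type X collagen, the matrix protein by which hypertrophic cartilage is usually recognised. Ppa1 codes for the cytosolic pyrophosphatase that splits inorganic pyrophosphate into phosphate. Car12 codes for a carbonic anhydrase of the cell surface, Fxyd2 for a small regulatory subunit of the sodium pump, and Panx3 for a membrane channel protein known from hypertrophic chondrocytes and osteoblasts. In the build GRCm38, with the identifiers of the deposited feature lists, Ppa1 (ENSMUSG00000020089) and Col10a1 (ENSMUSG00000039462) lie on chromosome 10, at 61648552 to 61674168 and 34389981 to 34397085, both on the plus strand. Fxyd2 (ENSMUSG00000059412, 45399669 to 45410278, plus), Car12 (ENSMUSG00000032373, 66713686 to 66766845, plus) and Panx3 (ENSMUSG00000011118, 37659902 to 37669235, minus) lie on chromosome 9. C1qtnf3 (ENSMUSG00000058914) lies on chromosome 15 at 10952332 to 10980150 on the plus strand. Il17b is ENSMUSG00000024578.

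Promoter sequence was matched for 4 of the 7 genes (Ppa1, C1qtnf3, Car12, Col10a1) in a RefSeq table of GRCm38.p6 and not for Il17b, Fxyd2 and Panx3. The 250 bases before the start are shown for Col10a1, the gene that parted from the others within Ihh-positive cells, and for C1qtnf3 and Car12, which did not. The windows lie on the plus strand at chr10:34389731-34389980, chr15:10952082-10952331 and chr9:66713436-66713685. Capitals mark any match, on either strand, to ACAAAG or ACAATG, core words bound by SOX proteins, or to TGTGGT, the core word bound by RUNX proteins.
Col10a1: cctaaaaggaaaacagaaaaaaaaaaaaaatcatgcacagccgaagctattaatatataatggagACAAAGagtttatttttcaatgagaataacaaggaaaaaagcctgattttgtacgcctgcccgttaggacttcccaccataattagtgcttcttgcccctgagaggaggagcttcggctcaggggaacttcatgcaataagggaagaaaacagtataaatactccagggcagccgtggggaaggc
C1qtnf3: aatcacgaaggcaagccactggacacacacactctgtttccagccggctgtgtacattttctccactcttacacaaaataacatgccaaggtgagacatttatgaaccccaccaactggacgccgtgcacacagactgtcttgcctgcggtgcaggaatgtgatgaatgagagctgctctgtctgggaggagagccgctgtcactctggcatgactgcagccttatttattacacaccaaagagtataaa
Car12: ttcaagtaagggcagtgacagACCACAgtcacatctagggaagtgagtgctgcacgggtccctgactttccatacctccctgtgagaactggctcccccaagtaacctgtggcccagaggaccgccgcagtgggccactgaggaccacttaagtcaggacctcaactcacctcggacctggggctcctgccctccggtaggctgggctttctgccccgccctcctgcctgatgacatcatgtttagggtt
Col10a1 held ACAAAG 185 to 180 bases before its start, and Car12 held ACCACA, the reverse strand of TGTGGT, 229 to 224 bases before its start. C1qtnf3 held none of the 3 words, and neither did the Ppa1 window of the same length. ACAAAG occurs in 16.5% of 32851 RefSeq promoter windows of 250 bases, ACAATG in 10.7% and TGTGGT in 14%. The words do not overlap each other. A match is a description and not a site, and its absence says only that these letters are not in this window.

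The 4 libraries held 70507107 to 76080803 unique molecular identifier (UMI) counts in 8053 to 12714 barcodes. After filters on genes, mitochondrial UMIs and doublets, 6240 control cells at day 13, 7156 control cells at day 19, 7303 mutant cells at day 13 and 9699 mutant cells at day 19 remained. Any 2 libraries shared 19 to 44 barcodes. Clusters were made without the 7 genes, and those with chondrocyte markers were called chondrocyte-like. They held 4396 and 1086 control cells and 3606 and 3119 mutant cells, in that order of age, which is 70.4% and 15.2% of control cells and 49.4% and 32.2% of mutant cells. The control library at day 19 thus stood apart with few chondrocyte-like cells, and these had the highest median depth, 16576 UMIs against 9581 to 11700.5 in the others. The chondrocyte marker Col2a1 stood at 66036 and 62915 counts per 1000000 UMIs (CPM) in control cells of the class and at 26257 and 30763 in mutant cells, and Acan, which drives the Cre, at 4347 and 4292 against 1028 and 1242. Sox9 itself was 358 and 456 CPM in controls and 202 and 181 in mutants. A count at the 3′ end may lie outside the floxed part, so Sox9 RNA does not check the deletion.

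Il17b, at bases 61684887 to 61692538 of chromosome 18 (GRCm38, plus strand), showed the widest gap between genotypes. In chondrocyte-like cells it stood at 222 CPM at day 13 and 369 at day 19 in controls, and at 4.6 and 2.13 in mutants. The mutant level was 48.3-fold lower at day 13 (log2 ratio −5.59, 95% counting interval −5.80 to −5.39) and 174-fold lower at day 19 (−7.44, −7.80 to −7.10). C1qtnf3, the other secreted factor, stood at 472 and 768 in controls and at 40.7 and 59.6 in mutants, 11.6-fold and 12.9-fold lower. For both genes, each control library lay above each mutant library. Nothing is read from that, since the rule used this contrast and the share of all genes that part so was not computed. All intervals here and below cover counting error only, since there is 1 library per group.

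The enzymes and the pump subunit lay between these and Col10a1. Ppa1, the most abundant of the 7, stood at 1578 and 1917 CPM in controls and at 205 and 246 in mutants, 7.68-fold and 7.80-fold lower. Fxyd2 was 123 and 337 in controls against 16.3 and 26.2 in mutants, 7.56-fold and 12.8-fold lower. Car12, the rarest of them in controls, was 56.9 and 80.9 against 6.27 and 12, 9.07-fold and 6.76-fold lower. Their mutant values lay below every control value, from which again nothing is read, and Ppa1 kept nearly the same ratio at both ages.

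The hypertrophic matrix gene and the channel gene differed least. Panx3 stood at 145 and 111 CPM in controls and at 38.9 and 32.6 in mutants, 3.73-fold and 3.41-fold lower. Col10a1 was 742 and 399 in controls and 238 and 310 in mutants, 3.12-fold lower at day 13 (log2 ratio −1.64, −1.67 to −1.61) and 1.29-fold lower at day 19 (−0.36, −0.41 to −0.32). Col10a1 at day 19 was thus the exception to a gap of 2-fold or more. Of the 7 genes, 7 at day 13 and 6 at day 19 were at least 2-fold lower, beside 2.19% and 2.26% of the 15239 genes tested, and nothing is read from those counts since the rule used this contrast. By its values Col10a1 lay nearest the 2-fold line, inside it at day 13 and outside it at day 19.

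**Figure D1:**
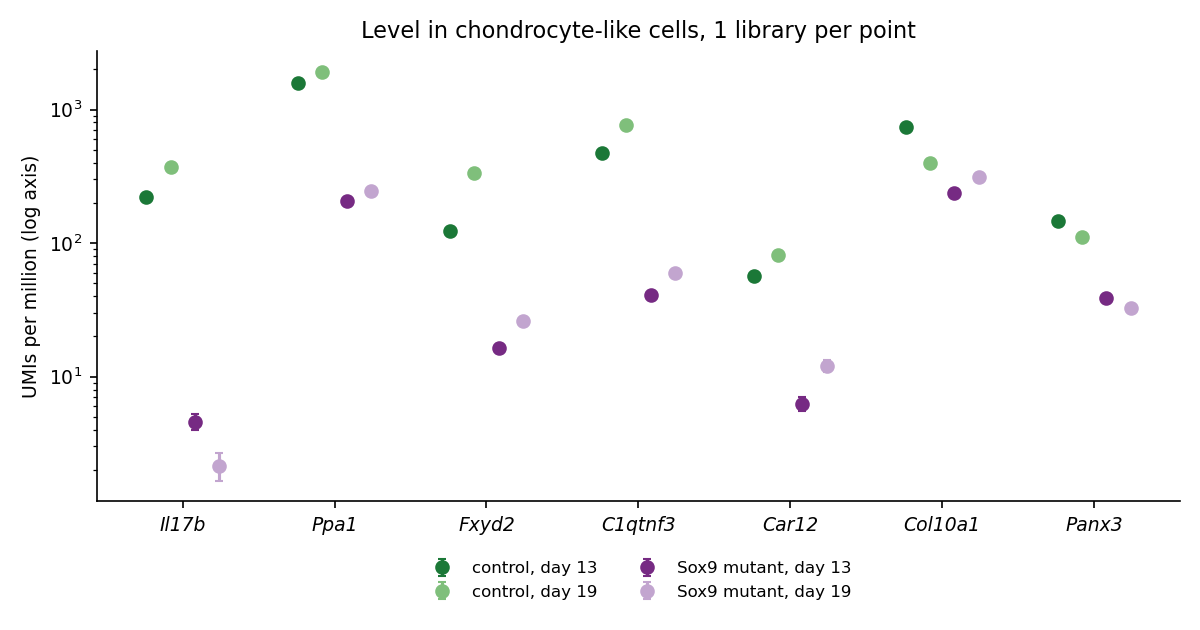
CPM of the 7 genes in chondrocyte-like cells on a log axis, 1 point per library, with exact Poisson 95% intervals that are mostly smaller than the points. Il17b lies at 222 and 369 in controls and at 4.6 and 2.13 in mutants, whereas the 4 Col10a1 points lie between 238 and 742.

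To ask whether fewer cells or less RNA per cell went with these gaps, each cell was thinned to 2000 UMIs, which left out 119 and 21 control cells and 136 and 117 mutant cells of the class for being shallower. The level of a gene is then the share of cells with a UMI times the mean UMIs in those cells. Measured shares were set beside a pair of references computed from the control cells. In one, every control cell's level is lowered by the same factor, and in the other, only the number of cells with a UMI is lowered. At low counts the references lie close together, because a rare transcript gives 1 UMI in the cells that show it either way. Neutrophil-like cells, which should lack these transcripts, give the level that free RNA can leave in a droplet. Before thinning, their median depth was 4570 and 7547.5 UMIs for control days 13 and 19 and 4279 and 4444 UMIs for the mutant days.

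Ppa1 was the gene for which the UMIs per positive cell changed most. At day 13 it was found in 44.0% of control and 19.9% of mutant chondrocyte-like cells, with 4.27 and 1.47 UMIs per positive cell. At day 19 the shares were 48.5% and 22.8%, with 4.91 and 1.46 UMIs. A uniform lowering of every cell gave 17% with 1.71 UMIs at day 13 and 19.4% with 1.73 at day 19, whereas fewer cells alone gave 6.88% and 6.77%. The mutant libraries thus lay nearer to, and slightly past, the uniform reference: more cells kept a UMI than it gives, each with fewer. Nearness to it does not show that every cell was lower, since the gap differed between the clusters described further on. At day 13 Ppa1 was 208 CPM in mutants against 235 in controls in the Tnni2-led cluster, and 1786 against 5714 in the Ihh-led one. Control levels in each cluster with the mutant cluster make-up would give 511 CPM at day 13 and 832 at day 19. These are rough. In the largest mutant clusters, led by Epha5 and by Myoc, the control levels rest on 45 and 10 cells and on 10 and 14 cells. Computed likewise, the other genes also lay below their control level at both ages, except Col10a1 at day 13, at 812 against 742 CPM. Cells with at least 3 Ppa1 UMIs made up 17.3% and 22.4% of control cells and 1.27% and 1.37% of mutant cells. The neutrophil-like share was 17.4% and 5.44% in controls and 6.16% and 3.63% in mutants, so some of the single UMIs in mutant chondrocyte-like cells are at a level free RNA can reach, and its part in them was not tested.

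Il17b and C1qtnf3 were found in far fewer mutant cells. Il17b had a UMI in 15.7% and 23.1% of control cells and in 0.375% and 0.200% of mutant cells, 13 and 6 cells. The uniform reference gave 0.451% and 0.261%, and fewer cells alone 0.260% and 0.129%, too close to each other to be told apart on so few cells. Neutrophil-like shares were 2.90% and 1.26% in controls and 0 of 146 and 0 of 523 cells in mutants, which allow up to 2.05% and 0.574%, so the mutant share over the whole class lay below those limits. The positive mutant cells were not spread evenly over the class: in the cluster led by Ihh described further on, 8.06% and 2.80% of mutant cells had an Il17b UMI, above the limits, and that cluster held 50.8% and 74.3% of the Il17b UMIs of the class. C1qtnf3 behaved differently at the ages: its share went from 35.1% to 2.19% at day 13 with 2.18 and 2.09 UMIs per positive cell, and from 38.0% to 3.83% at day 19 with 2.98 and 1.70. At day 13 this lay on the reference of fewer cells (2.10% with 2.18 UMIs) and away from the uniform one (4.25% with 1.07). At day 19 it lay between them, as fewer cells gave 2.18% and the uniform lowering 6.04% with 1.10 UMIs. The 20 mutant cells at day 13 with at least 3 C1qtnf3 UMIs had 4.6 on average, against 4.04 in the controls. Neutrophil-like cells had a C1qtnf3 UMI in 5.80% and 2.93% of control and 0.685% and 0.574% of mutant cells.

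Fxyd2, Car12 and Panx3 gave less contrast between the references. Fxyd2 had a UMI in 7.86% and 16.8% of control cells, with 1.81 and 2.67 UMIs, and in 1.99% and 2.07% of mutant cells, with 1.17 and 1.34. That was near the uniform reference at day 13 (2.10% with 1.14) and between both at day 19 (2.43% with 1.09, against 1.04% with 2.67). Car12 had a UMI in 6.90% and 9.58% of control and 0.807% and 1.13% of mutant cells, nearly always a single one, and its references differed by too little to be separated (0.881% and 0.782% at day 13). Panx3 had a UMI in 11.6% and 9.48% of control and 4.09% and 2.87% of mutant cells. At day 13 this was close to the uniform reference of 4.27%, and at day 19 close to the reference of fewer cells, 2.76%. In neutrophil-like cells the shares were at most 4.35% for Fxyd2, 0.837% for Car12 and 2.90% for Panx3, and in the mutants at most 0.191%, 0.191% and 0.685%. Mutant chondrocyte-like shares of Fxyd2, Car12 and Panx3 thus stood above the neutrophil-like share of their own library. In the mutant at day 13, however, no neutrophil-like cell had Fxyd2 or Car12, which over 146 cells allows up to 2.05%. The Fxyd2 and Car12 shares there, 1.99% and 0.807%, lay below that limit and were not shown to exceed background.

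For Col10a1 a single UMI cannot be taken to mark an expressing cell. A Col10a1 UMI was present in 12.2% and 4.79% of control and 5.27% and 3.56% of mutant chondrocyte-like cells, but in 14.5% and 1.67% of control and 6.85% and 4.97% of mutant neutrophil-like cells. Except in the control at day 19, the first share lay below the second and was not shown to exceed background. Neutrophil-like cells were shallower before thinning, so their share can overstate that background. No neutrophil-like cell had 3 or more Col10a1 UMIs in any library. By that measure 3.88% of control and 0.490% of mutant cells were positive at day 13, with 23.8 and 31.3 UMIs per positive cell. At day 19 they were 2.44% and 0.866%, with 17.5 and 23.8 UMIs. Cells rich in Col10a1 thus made up a smaller share in the mutant libraries, 17 and 26 cells, and had no less of it per cell. At day 19 the shares were of 1065 control and 3002 mutant cells, and the number of such cells was not smaller in the mutant.

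Without thinning, the shares with a UMI followed the same order of genotypes. They were 30.7% and 37.1% against 1.22% and 0.866% for Il17b, 80.8% and 85.5% against 59.2% and 59.0% for Ppa1, and 56.8% and 51.8% against 7.04% and 9.20% for C1qtnf3. For Fxyd2 they were 22.1% and 38.6% against 10.01% and 8.72%, for Car12 24.8% and 33.9% against 3.77% and 5.39%, for Panx3 26.5% and 26.6% against 11.9% and 8.43%, and for Col10a1 36.8% and 16.2% against 22.2% and 11.6%. Counting at 1 UMI or more after thinning, the share was lower by a larger factor than the UMIs per positive cell for 6 genes at day 13 (all but Ppa1) and for 5 at day 19 (all but Ppa1 and Col10a1). The uniform reference itself has that pattern for most of them, so the count alone does not separate the alternatives.

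**Figure D2:**
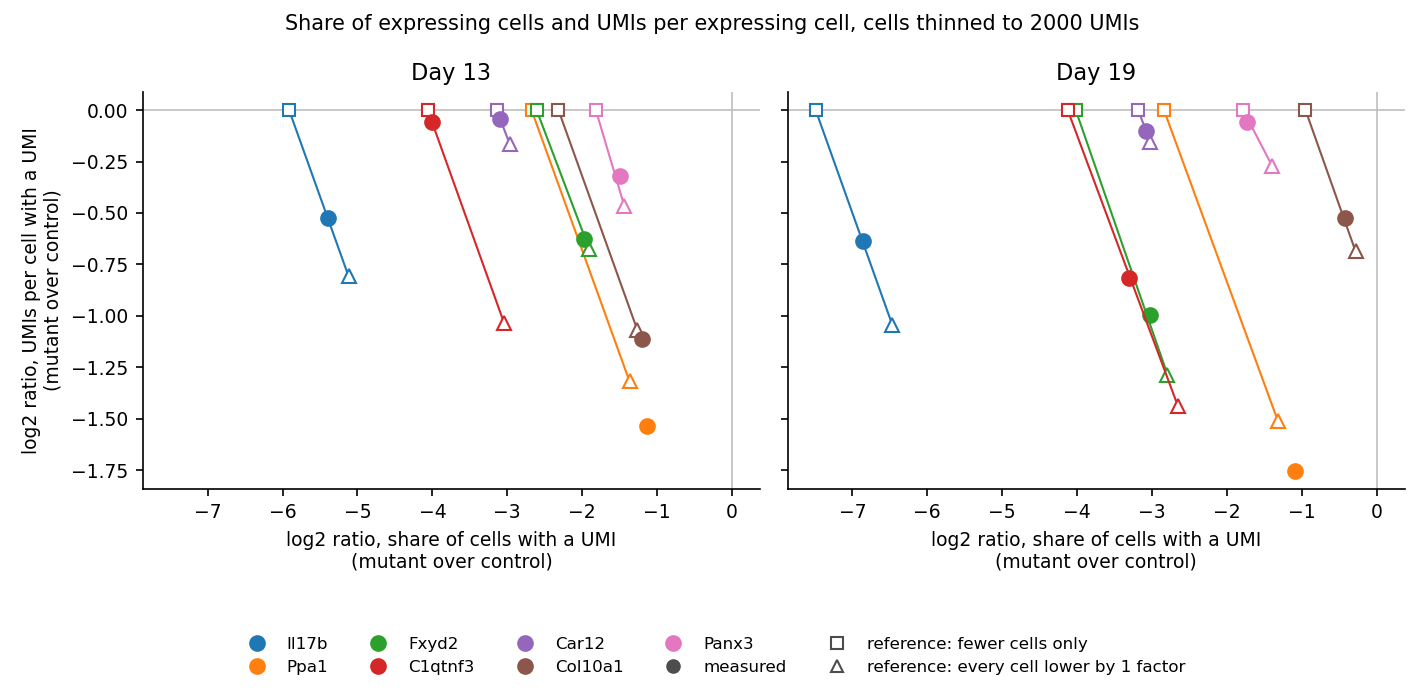
For each gene and age, the log2 mutant over control ratio of the share of chondrocyte-like cells with a UMI (horizontal) and of the mean UMIs in those cells (vertical), after thinning to 2000 UMIs; open symbols joined by a line are the references of fewer cells only (square) and of every cell lowered alike (triangle). The C1qtnf3 point at day 13 sits on its square at −4.00 and −0.06, whereas Ppa1 lies beyond its triangle at both ages. The Col10a1 points include single UMIs that were not shown to exceed background.

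The 7 genes were also detected together in fewer mutant cells. A UMI of at least 4 of the 7 was present in 427 of 4277 control cells at day 13 (9.98%, exact Clopper-Pearson 9.10% to 10.9%) and in 166 of 1065 at day 19 (15.6%, 13.5% to 17.9%). In the mutants it was present in 12 of 3470 (0.346%, 0.179% to 0.603%) and 9 of 3002 (0.3%, 0.137% to 0.568%). None of the 7 was detected in 34.3% and 37.1% of control and 70.9% and 70.4% of mutant cells. Among neutrophil-like cells, at least 4 were detected in 0 of 69 and 1 of 239 control cells and in 0 of 146 and 0 of 523 mutant cells, the zeros allowing 4.35%, 2.05% and 0.574%.

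Company of the other genes differed by member. Of the control cells with an Il17b UMI, 76.9% and 87.4% had at least 2 of the other 6 genes. For Panx3 these were 78.0% and 90.1% in controls and 14.1% and 25.6% in mutants, and for Ppa1 41.0% and 51.4% against 4.77% and 5.85%. For C1qtnf3 they were 44.0% and 60.7% against 31.6% and 26.1%. Most mutant cells positive for a gene thus had fewer than 2 of the other 6, except the 13 with an Il17b UMI at day 13, of which 61.5% had at least 2. For genes near background the part of free RNA in these shares was not tested.

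**Figure D3:**
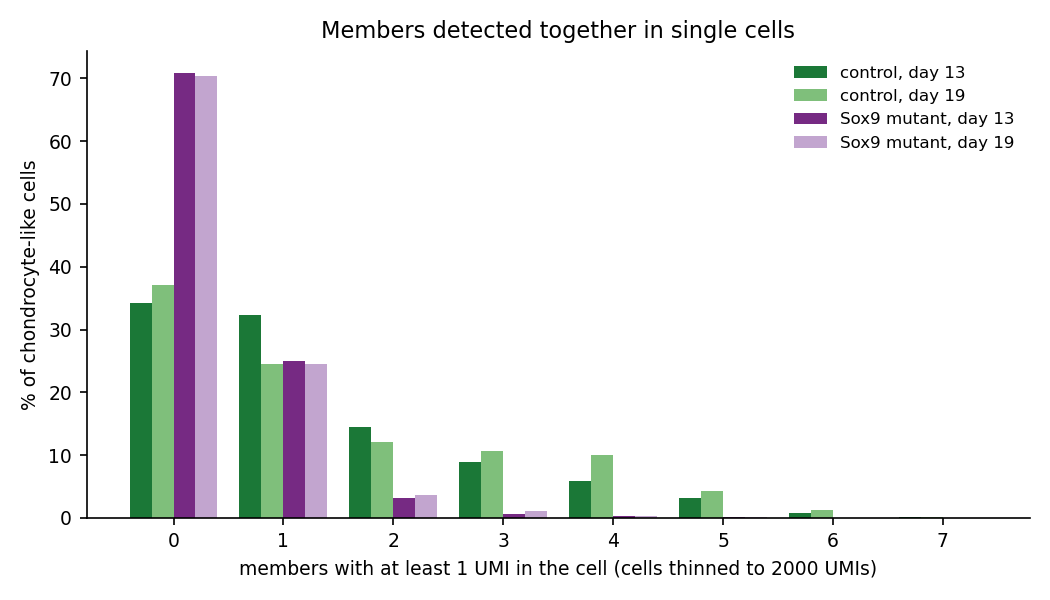
Percent of chondrocyte-like cells, thinned to 2000 UMIs, by how many of the 7 genes had at least 1 UMI, with 1 bar per library. The mutant bars stand at 70.9% and 70.4% for no gene and almost vanish at 4 or more, where the control libraries hold 9.98% and 15.6% of their cells.

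The class itself was made of different clusters in the genotypes. In controls, clusters led by Tnni2, Frzb and Matn1 and by Prelp, Ucma and Matn3 held most cells. In mutants the 2 largest were led by Epha5 and Gal, with 29.9% and 23.3% of the class, and by Myoc and Pi15, with 21.1% and 26.3%. A cluster led by Ihh, with Wnt4 and Cdkn1c among its leading genes, held cells of all 4 libraries, 393 and 92 control and 63 and 108 mutant cells with median depths of 20238.5 to 32770 UMIs. Its size was not compared between genotypes, because Ihh and other leading genes differed between them over the class. Levels within it bear on how the 7 genes stood in prehypertrophic-like cells of both genotypes.

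Within the Ihh-led cluster, Il17b remained far lower in the mutants, 64.2 against 633 CPM at day 13 and 21.1 against 1007 at day 19. Ppa1 was 1786 against 5714 and 1528 against 6559, 3.20-fold and 4.29-fold lower. Fxyd2 was 169 against 478 and 203 against 1042, 2.83-fold and 5.14-fold lower. The share of cells of the cluster with a UMI was 8.06% against 55.1% and 2.80% against 67.4% for Il17b, and 53.2% against 90.8% and 56.1% against 92.4% for Ppa1. The Ppa1 UMIs per positive cell were also lower there, 5.55 against 11.1 and 4.52 against 12.8. For the cytokine and the pyrophosphatase, then, the gap was present within cells that share an Ihh-led profile.

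C1qtnf3, Car12 and Panx3 were closer between genotypes in that cluster. C1qtnf3 was 499 against 660 at day 13, 1.32-fold lower, and 402 against 924 at day 19, 2.30-fold lower. Car12 was 1.82-fold and 2.10-fold lower, and Panx3 1.77-fold lower at both ages, 340 against 602 and 264 against 466. Col10a1 went the other way. It was 5845 in mutant against 3792 in control cells at day 13 (log2 ratio 0.62) and 3694 against 2422 at day 19 (0.61), and its UMIs per positive cell were 34.6 against 19.7 and 18.3 against 13.5. In all, 3 genes at day 13 and 5 at day 19 were at least 2-fold lower within the cluster. With coarser clusters, the count at day 13 was 1, in a cluster of 1732 control cells, and Panx3 there was level between genotypes at a log2 ratio of 0.01. These counts, and the 2-fold counts in gated cells below, were not set beside a share over all genes in the same cells. Nothing is read from them, since the rule used this contrast. Ihh itself, which defines the cluster, stood at 369 and 378 in its control cells and 611 and 652 in its mutant cells.

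A gate that needs no cluster gave a like order. Among all cells, an Ihh UMI was present after thinning in 178 control cells at day 13 (3.11%) and 45 at day 19 (0.781%), and in 156 (2.38%) and 125 (1.56%) mutant cells, so the share was lower in the mutant at day 13 and higher at day 19. This gate takes cells of any type. Within the chondrocyte-like class only 56 and 52 mutant cells passed, so much of the mutant set lay outside it. Osteoblast-like cells had Ihh at 13.1 and 29.2 CPM in controls and at 159 and 138 in mutants. In all gated cells the log2 mutant over control ratios were −4.73 and −5.67 for Il17b, −2.81 and −2.29 for Ppa1, and −2.07 and −1.56 for C1qtnf3. Fxyd2, Car12 and Panx3 lay between −2.44 and −1.04. Col10a1 was 5310 against 4814 CPM at day 13 (0.14) and 5728 against 3447 at day 19 (0.73), and was thus no lower in Ihh-positive mutant cells. With cells thinned to 5000 UMIs its day 13 ratio was −0.02, and with 2 or more Ihh UMIs required, which left 14 control and 47 mutant cells at day 19, its day 19 ratio was −0.05, both with counting intervals that reach 0. The other 6 genes were at least 2-fold lower at both ages. With 2 or more Ihh UMIs the count was 5 at day 13, without Panx3 (−0.93), and 4 at day 19, without C1qtnf3 (−0.82) and Panx3 (−0.98).

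Keeping to chondrocyte-like cells with an Ihh UMI, 177 and 36 control and 56 and 52 mutant cells, Il17b, Ppa1 and Fxyd2 stayed at least 2-fold lower at both ages. C1qtnf3 (−0.94 and −0.91) came just inside 2-fold, Car12 and Panx3 crossed the line between ages, and Col10a1 was higher again (0.41 and 0.61). The 2-fold count was then 5 at day 13 and 3 at day 19. A gate on Pth1r, which is made more broadly and was in 8.70% and 12.3% of neutrophil-like cells at day 13, held 1634 and 556 control and 2706 and 1986 mutant cells. There, 7 and 6 genes were at least 2-fold lower and Col10a1 was at −1.60 and −0.44, much as in the whole class.

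**Figure D4:**
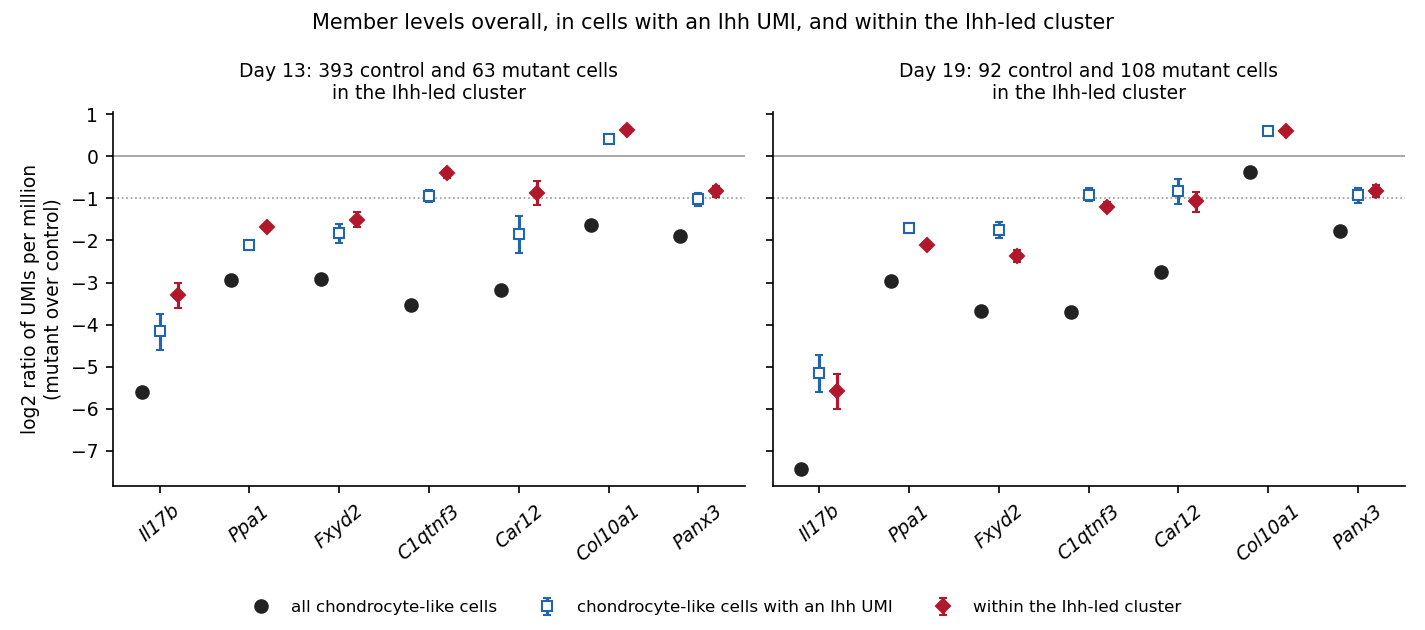
Log2 ratio of CPM, mutant over control, for the 7 genes in all chondrocyte-like cells (circles), in those with an Ihh UMI (squares) and within the Ihh-led cluster (diamonds), with 95% counting intervals; the dotted line marks 2-fold lower. Il17b stays below −3 in each set of cells, and Col10a1 moves from −1.64 and −0.36 in the whole class to above 0 in both Ihh-selected sets.

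Outside the Ihh-led cluster the genes parted by place. That cluster held 85.7% to 89.4% of all Col10a1 UMIs of the class in every library. C1qtnf3 in controls was instead mostly in the cluster led by Prelp, Ucma and Matn3, which held 55.0% and 51.8% of its UMIs, and where Ihh was only 4.85 and 1.44 CPM. There C1qtnf3 stood at 947 and 1430 in controls and, in the 31 and 96 mutant cells of that cluster, at 870 and 436. So the name prehypertrophic covers C1qtnf3 only in part, since its highest level in a cluster was in the Prelp-led one of the control at day 19. Car12 also had more of its control UMIs in the Prelp-led than in the Ihh-led cluster, 42.0% against 39.0% at day 13 and 35.4% against 32.4% at day 19, though its level per UMI was higher in the Ihh-led one, 132 against 87.2 and 178 against 103 CPM. Il17b in that cluster was 262 and 449 in controls and 145 and 0 in mutants. The cycling cluster, led by Pbk and Cdk1, held 214 and 116 control and 167 and 138 mutant cells. There Il17b was 334 and 507 CPM in controls against 5.38 and 3.2 in mutants, and Ppa1 1479 and 2090 against 336 and 213. C1qtnf3 was 769 and 1195 against 129 and 148, and Panx3 98.3 and 93.6 against 38.3 and 28.8. All of these gaps were wider than in the Ihh-led cluster at both ages, and so were those of Fxyd2 and Car12. Col10a1 in the cycling cluster was lower in the mutant at day 13 (log2 ratio −1.34). At day 19 it was not (0.92), on 17 control and 21 mutant UMIs. In the 3 clusters that were mostly of mutant cells, led by Epha5 and Gal, by Myoc and Pi15, and by Cryba2 and Mmp13, Il17b was at most 0.806 and C1qtnf3 2.19 to 15.6, while Ppa1 still stood at 112 to 127.

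Col10a1 and Panx3 were also found outside the class. In osteoblast-like cells, of which there were 26 and 17 in controls and 823 and 470 in mutants, Col10a1 stood at 774, 3458, 824 and 822 CPM in the order control day 13, control day 19, mutant day 13 and mutant day 19, and Panx3 at 164, 188, 218 and 194. Over all kept cells, Col10a1 was 628 and 160 in controls and 282 and 222 in mutants. Its log2 ratio was then −1.15 at day 13 and 0.47 at day 19, so its direction at day 19 turned with the cells counted, beside the low share of chondrocyte-like cells in that control library. Panx3 over all kept cells was 127 and 40.9 against 61.8 and 32.6.

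Within a library the 7 genes were also read against the Sox9 UMIs of each thinned chondrocyte-like cell. In the mutant at day 13, Il17b was 3.44 CPM in the 2353 cells with no Sox9 UMI and 20.4 in the 290 cells with 2 or more, Ppa1 192 and 378, and C1qtnf3 36.5 and 105, but Col10a1 264 and 26.8. In the mutant at day 19, with 2123 and 181 such cells, Il17b was 1.97 and 5.34, Ppa1 222 and 396, C1qtnf3 59.5 and 59.3, and Col10a1 235 and 984. In the 827 mutant cells of day 13 with 1 Sox9 UMI, Il17b was 3.35, Ppa1 197 and C1qtnf3 34.3, close to the cells with none. At day 13 the share of cells with a UMI went against the level for Ppa1, from 20.4% to 15.9%. The same held for Col10a1, from 4.97% to 7.24%. Il17b was in only 0.690% of the 290 cells, so no trend with Sox9 is read. Even mutant cells with 2 or more Sox9 UMIs thus stayed far below the control cells with as many, where Il17b was 300 and 398 and Ppa1 1832 and 1828. Control cells with no Sox9 UMI had 207 and 335 of Il17b and 1572 and 1947 of Ppa1, so at this depth a missing Sox9 UMI did not mark a low cell in controls. A Sox9 UMI does not show whether the floxed alleles were recombined.

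Age was not used to choose the genes, so it was tested, on counts summed over chondrocyte-like cells of each library with genotype and age as additive terms. The 2 genotypes are then the only repeats of each age. By edgeR's quasi-likelihood test none of the 7 passed an adjusted p of 0.05, beside 0.151% of 15239 genes called (23 genes, of which 0.144% of all were higher and 0.00656% lower at day 19, and 1250 genes at an unadjusted p under 0.05). Fxyd2 came nearest, with a log2 change of 1.04 from day 13 to day 19 (unadjusted p = 2.69e-04, adjusted p = 0.0809), and it was higher at day 19 in both genotypes. Its adjusted p was 0.00998 without the filter on low counts, 0.0244 over skeletal-lineage cells and 5.46e-05 with DESeq2. C1qtnf3 (0.58, edgeR adjusted p = 0.181) and Car12 (0.65, adjusted p = 0.227) were also higher at day 19 in both genotypes, and C1qtnf3 passed with DESeq2 (adjusted p = 0.0350). Panx3 (−0.37, edgeR adjusted p = 0.419) was lower at day 19 in both, but with doublets kept it was higher in the mutants, at 30.7 and then 35.6 CPM (log2 ratio 0.21). Il17b and Col10a1 went opposite ways in the genotypes. Il17b had a log2 ratio of day 19 over day 13 of 0.74 in controls and −1.11 in mutants, and Col10a1 one of −0.89 in controls and 0.38 in mutants, differences that this design cannot test.

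The other genes around the 7 were taken from lists by role, with the 7 themselves left out, and were tested for genotype in the same edgeR fit, where 23.4% of 15239 genes were called, 12.5% higher and 10.8% lower in mutants, with a median log2 change of 0.01 over all genes. Of 25 other prehypertrophic and hypertrophic genes, 6 were higher, 11 lower and 8 did not pass (median −0.19). Mmp13, a collagenase of late hypertrophic cartilage, was higher by 6.38 ± 0.156 (log2, SE; adjusted p = 2.77e-06), from 7.39 and 6.08 CPM in controls to 716 and 551 in mutants. The bone matrix gene Ibsp (1.98 ± 0.492, adjusted p = 0.0247) and the phosphatase gene Alpl (1.69 ± 0.147, adjusted p = 3.05e-04) were also higher, the Ibsp call being lost with DESeq2 (adjusted p = 0.291). Scin, which codes for an actin-severing protein, was lower (−2.76 ± 0.188, adjusted p = 1.12e-04). The list thus held genes that moved in both directions. The osteoblast-like cells listed above were also more numerous in the mutant libraries, and their part in the higher Ibsp and Alpl of this class was not tested.

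Of 14 hedgehog and PTHrP pathway genes, 1 was higher, 2 lower and 11 did not pass (median 0.24). The hedgehog-binding inhibitor gene Hhip was lower (−1.08, adjusted p = 0.0141), which was lost over skeletal-lineage cells (−0.06), and Boc, a co-receptor gene, higher (1.0, adjusted p = 0.00165). Ihh was lower over the class (−0.88 ± 0.256, adjusted p = 0.0434), a call lost with 1000 or more genes required per cell, with doublets kept (−0.45) and over all skeletal-lineage cells (−0.20). Pth1r stood at 543 and 618 CPM in controls and 626 and 522 in mutants, values that overlap between genotypes. With doublets kept it was 506 and 587 against 378 and 441, without overlap, and was called lower.

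Relatives of each member did not share 1 direction. Of the 6 interleukin 17 family and receptor genes tested beside Il17b, 1 was higher and 3 lower (median −0.56). Il17d, another ligand of the family, was 115 and 111 in controls and 52.0 and 57.6 in mutants (−1.22 ± 0.128, adjusted p = 6.92e-04), and Il17rb, a receptor known to bind IL-17B, was lower by a log2 change of −1.61 (adjusted p = 0.0151), a call lost with DESeq2 (adjusted p = 0.0966). Il17rb was scarce throughout, at 1.80 and 1.51 CPM in controls and 0.589 and 0.638 in mutants. Of 9 other pyrophosphate and phosphate genes, 2 were higher, 1 lower and 6 did not pass (median −0.20), among them the transporter gene Ank (0.73, adjusted p = 0.0362) and the sphingomyelinase gene Smpd3 (−0.95 ± 0.122, adjusted p = 0.00165). Over skeletal-lineage cells neither passed (0.52 and −0.09).

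Among 12 other FXYD and sodium pump genes 3 were higher and 5 lower (median −0.26). Fxyd4 was lower, 6.22 and 4.97 CPM in controls and 0.448 and 0.304 in mutants (−4.06 ± 0.291, adjusted p = 1.36e-04), and the pump subunit gene Atp1b1 was higher (2.40 ± 0.272, adjusted p = 9.44e-04). Of 16 other carbonic anhydrase and bicarbonate genes, 7 were higher and 1 lower (median 0.55). Car9, a close relative of Car12 at the cell surface, went from 3.30 and 3.47 to 19.1 and 14.9 (2.16 ± 0.173, adjusted p = 2.14e-04), and Car3 was higher by 2.71 (adjusted p = 6.52e-04). Car12 and Car9 thus stood on opposite sides.

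Of 9 C1q and TNF related and short-chain collagen genes tested beside C1qtnf3 and Col10a1, 3 were higher and 1 lower (median −0.14). Col8a2, a short-chain collagen gene like Col10a1, was higher (1.71 ± 0.202, adjusted p = 0.00116) and C1qtnf12 lower (−0.57, adjusted p = 0.0306). Of 6 other pannexin and connexin genes, 1 was higher and 1 lower (median −0.15). Gja1, the connexin gene of bone and cartilage gap junctions, was 61.0 and 89.4 in controls and 206 and 216 in mutants (1.35 ± 0.131, adjusted p = 4.95e-04), and Gjb6 was lower (−1.74, adjusted p = 0.0131), a call that DESeq2 did not make. Gjb6 was scarce, at 0.726 and 2.96 CPM in controls and 0.306 and 0.821 in mutants, values that overlap between genotypes. Cartilage matrix genes moved most as a list, with 15 of 18 lower, 1 higher and a median of −1.48. Prelp (−3.29 ± 0.160, adjusted p = 4.14e-05), Matn3 (−2.49), Matn1 (−2.47) and Col9a3 (−2.22) were the 4 largest changes there.

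Across 26 sums of at least 50 cells per cluster and library within the class, the 7 genes followed their common mean to different degrees. The Pearson correlation of log2(CPM + 1) with the mean of the other 6 was 0.97 for Ppa1, 0.92 for Car12, 0.91 for Fxyd2, 0.87 for Il17b, 0.86 for Panx3, 0.85 for C1qtnf3 and 0.50 for Col10a1. Col10a1 thus followed the others least. The genes outside the 7 that were most alike to their mean were Rbm17, Nudcd2, Wscd2, Slc13a5, Hapln1, Timm10b, Nans, Scarb1, Slc35b2 and Slc35a3, with correlations from 0.95 to 0.94. Slc13a5, a citrate transporter gene, had log2 mutant over control ratios of −2.36 and −2.08 at days 13 and 19, Wscd2 ratios of −1.93 and −2.01, and Hapln1, the link protein gene of aggrecan, ratios of −1.80 and −1.75. Sums of 1 library share its depth and free RNA, and the clusters share cells with like profiles, so these correlations are descriptions. The sums also mix both genotypes, and the 7 genes were picked for lower levels in mutants. Their likeness can therefore come from that choice, and correlations within a genotype were not computed.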

How the data were processed

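The authors deposited raw UMI counts per gene and barcode for 4 libraries, made with Cell Ranger 3.1.0 per the file headers on mm10 per the submitters' processing notes, which also name Seurat 3 with no role. The labels' protocols give Liberase digestion, Chromium version 3 chips and NovaSeq sequencing. The design text names another age and genotype, and the sample labels were followed. Kept barcodes had at least 500 genes and no more than 15% of UMIs from mitochondrial genes. Doublets scored above 0.25 by the Scrublet method were removed (100, 85, 126 and 243 barcodes for control days 13 and 19 and mutant days 13 and 19); that score was set after the automatic threshold had marked 86, 0, 0 and 293. Cells were clustered in scanpy 1.11.5 (Python 3.11.15, igraph 0.11.9) on 2000 variable genes without the 7 members, with 30 components, 15 neighbours, Leiden resolution 1 and no batch correction, giving 29 clusters. A cluster was called chondrocyte-like from at least 3 listed markers among its 25 leading genes, or at least 10 chondrocyte markers 3-fold above blood-like clusters.

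Levels are counts per 1000000 UMIs summed over the cells (CPM), with exact Poisson 95% intervals. Ratios have exact conditional binomial 95% intervals, and shares have exact Clopper-Pearson intervals. A count of 0 was given a limit of 3 counts. PCR duplicates are removed by the UMIs, and intervals cover counting error only. Medians of 5409 to 9720 UMIs per kept barcode limit detection of rare transcripts in single cells. Sums per library were tested in edgeR 4.0.16 (R 4.3.3, limma 3.58.1) by the quasi-likelihood test after filterByExpr and TMM scaling, with Benjamini-Hochberg adjusted p-values and additive genotype and age, which leaves 1 residual degree of freedom. The p-values do not measure the spread between mice. The procedure was tested on simulated data. DESeq2 1.42.0 was an alternative, beside other filters, thinning depths and sets of cells.

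The members and the gene lists were chosen with earlier results of these data known, the lists in part from an earlier analysis. The text names the 7 members, Sox9, Ihh and Pth1r, from each list up to 4 tested genes with the largest absolute log2 change, and the 10 genes most alike to the members' mean with a mean of at least 10 CPM. Acan, Col2a1 and leading genes of clusters were named beyond that rule after their values were seen.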

Additional observations from a re-analysis of the deposited data

Results flagged for a closer look

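Il17b changed with age in opposite directions in the genotypes. In chondrocyte-like cells its log2 ratio of day 19 over day 13 was 0.74 in the control libraries and −1.11 in the mutant libraries, so the mutant minus control difference was −1.85, on mutant levels of 4.6 and 2.13 counts per 1000000 UMIs. Col10a1 also went opposite ways, with −0.89 in controls and 0.38 in mutants, a difference of 1.28. Both differences rest on 1 library per group and were not tested.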

How the results depend on the processing

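No paired analysis was possible because each genotype and age has 1 library and the labels give no replicate numbers. For the same reason no replicate could be left out. The number of members at least 2-fold lower was 6 to 7 at day 13 and 5 to 6 at day 19 over all settings of filter, doublets and cells. In Ihh-positive cells at day 19 it was 6, and 3 when only chondrocyte-like cells were used. Within the Ihh-led cluster at day 13 it was 3, and 1 at Leiden resolution 0.5, an alternative added after the data were seen. The number of members whose share was lower by a larger factor than their UMIs per positive cell was 5 to 7 at day 13 and 4 to 7 at day 19. Genes called between genotypes numbered 3561 with edgeR and 2368 with DESeq2. Genes called between ages numbered 23 with edgeR, 131 without the low-count filter, 40 over skeletal-lineage cells and 102 with DESeq2. Directions that turned included those of Col10a1 at day 19 over all kept cells (0.47), Il17b with age without the filter (−0.0080) and with DESeq2 (−0.21), Phospho1 over skeletal-lineage cells (0.85), and Gjb2 with doublets kept (0.090) and over skeletal-lineage cells (0.16). Col10a1 in Ihh-positive cells turned from 0.14 to −0.02 at day 13 with thinning to 5000 UMIs and from 0.73 to −0.05 at day 19 with at least 2 Ihh UMIs. Day 19 over day 13 turned for Panx3 in mutants with doublets kept (0.21) and, over all kept cells, for Il17b (−0.49), Ppa1 (−0.93), C1qtnf3 (−0.52) and Car12 (−0.65) in controls and for Ppa1 (−0.18), C1qtnf3 (−0.19) and Col10a1 (−0.35) in mutants. In each case the cause was not tested. Of 98 checks of the members' mutant over control ratios, 51 stayed inside the counting interval of the main value. Another 46 left it with the direction kept, and 1 turned. Of 208 checks of list genes, 189 kept direction and call, 13 lost and 3 gained a call. Depth limits what can be read from Il17b, with 13 and 6 positive mutant cells, and 21 and 8 after thinning to 5000 UMIs.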
